A study of Mus musculus with 4 samples.

Results

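The genes described here are 10 transcription regulators and receptors of the mammary luminal lineage: Gata3, Foxa1, Esr1, Pgr, Prlr, Elf5, Kit, Stat5a, Ehf and Elf3. They were picked by gene symbol from the 33677 symbols of a count table, without a filter on counts but with earlier results of these data known. RNA was sequenced from PyMT-A, a mouse mammary tumour cell line on the FVB/NJ background whose name refers to the polyoma middle T oncogene. The Jagged1 cells had been infected with a PMSCV virus for Jagged1, one of the ligands that activate Notch receptors (2 libraries). The vector cells had been infected with the PMSCV-puro virus (2 libraries). Both lines come from the same parent line, so all 4 libraries share its oncogene and its retroviral handling, and both were cultured in DMEM with serum. The labels do not say whether the 2 libraries of a line were separate cultures, so the p-values measure a spread that may be technical.

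The milk-producing layer of the mammary gland, the luminal epithelium, holds hormone-sensing cells and the progenitors of secretory alveoli. GATA3 and FOXA1 are transcription factors that keep the luminal programme open, and FOXA1 opens chromatin for the oestrogen receptor. The oestrogen receptor (Esr1), the progesterone receptor (Pgr) and the prolactin receptor (Prlr) carry the hormone signals, and STAT5A passes the prolactin signal to the nucleus. ELF5, EHF and ELF3 are epithelial ETS-domain transcription factors, of which ELF5 drives alveolar differentiation. KIT is a receptor tyrosine kinase found on luminal progenitors. Notch signalling itself favours the luminal fate in the mammary gland.

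The libraries held 20835208 and 13549258 counts for Jagged1 1 and 2, and 15609720 and 12136227 for vector 1 and 2. Levels below are CPM, counts relative to library size after scaling with TMM factors, a method that equalises the bulk of genes. Jag1, which checks the labels, was at 274 and 324 CPM in Jagged1 cells and at 10.5 and 9.11 CPM in vector cells. It was the 1 gene of 13299 tested that passed the adjusted threshold of 0.05 (log2 fold change 4.93 ± 0.20, SE; adjusted p = 0.0111, edgeR). Without vector 1 or vector 2 it did not pass (adjusted p = 0.24 and 0.153), and edgeR then called 0 genes, with 226 and 676 at an unadjusted p under 0.05. Without Jagged1 1 or Jagged1 2 edgeR called 193 and 49 genes, and with all libraries DESeq2 called 47 and limma-voom 1. The main axis of variation, with 51.6% of the variance, set the libraries numbered 1 apart from those numbered 2 rather than the lines apart. For this reason each member is also given within its library number, which here means the replicate number in the sample title. The count columns carry another numbering, which is different for every library. The labels do not state that equal replicate numbers mark a shared batch.

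Of the 10 genes, 7 had enough reads for the test, each with at least 225 counts in every library, while Foxa1, Pgr and Kit were at or close to 0. Of the 7 tested genes, 0 passed the adjusted threshold in edgeR, DESeq2 or limma-voom; over all tested genes edgeR and limma-voom called 0.00752% each and DESeq2 0.353%. At an unadjusted p under 0.05 stood 2 genes, Gata3 and Elf5, both with higher values in Jagged1 cells, a direction and threshold that 1.8% of all tested genes met. The Jagged1 libraries were both higher than either vector library in 3 of the 7, Gata3, Elf5 and Stat5a, against 13.9% of all tested genes. They were both lower in 1, Esr1, against 15.2%. Values were positive in 6 of the 7 (49.5% of all tested genes), and the median log2 fold change was 0.41, against -0.0025 over all tested genes. The genes were chosen with earlier results of these data known, so these shares describe the set and carry no test of it. The basal and myoepithelial list also had positive values, in 3 of 3 tested genes with a median of 0.99, and 0 passed over all genes. In bulk RNA, more cells of a type and more RNA per cell cannot be told apart.

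**Figure D1:**
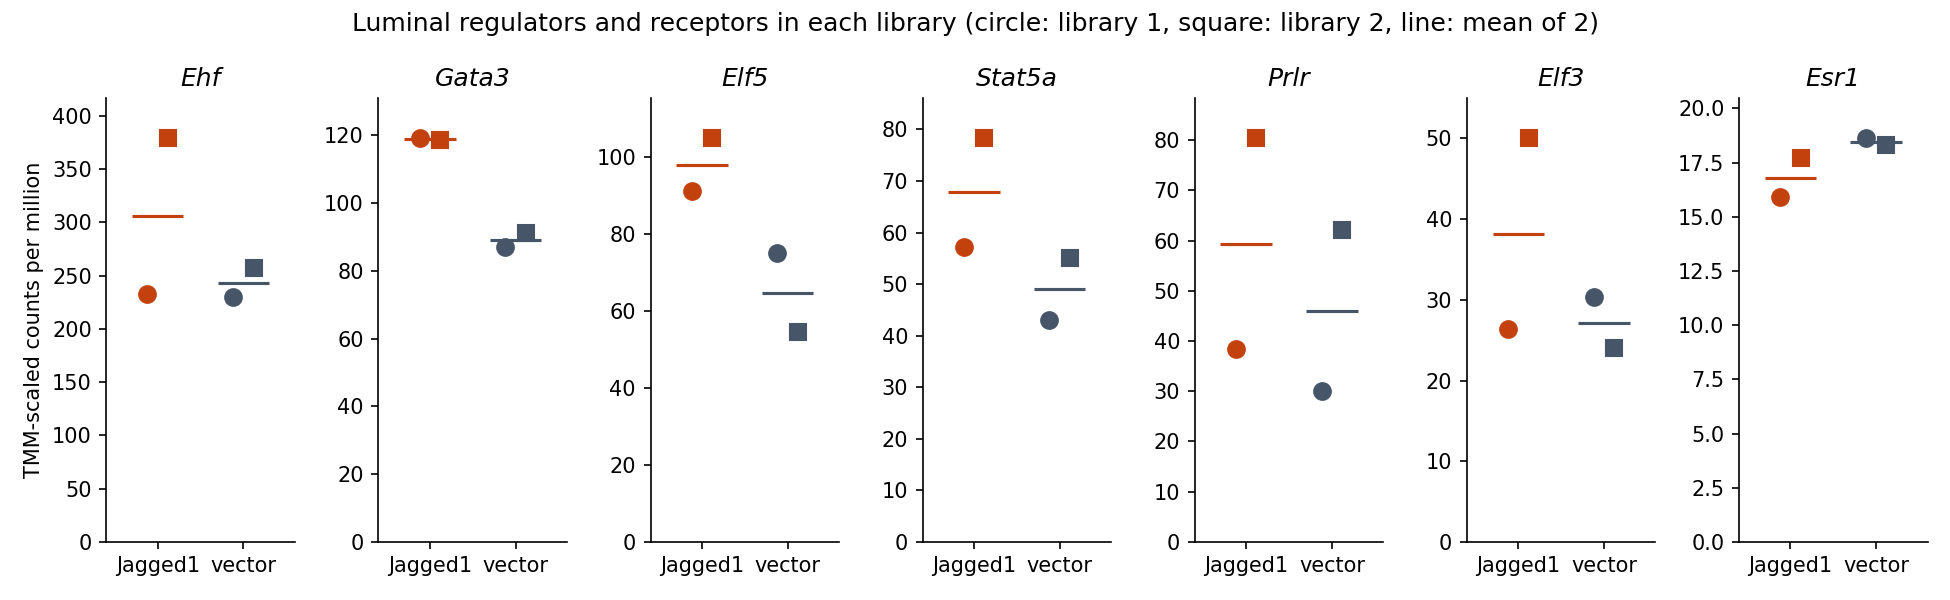
Level of each of the 7 tested genes in TMM-scaled CPM on a linear axis starting at 0, with 1 point per library, Jagged1 cells on the left and vector cells on the right; the line is the mean of the 2 libraries. The lines are separate in Gata3, Elf5, Stat5a and Esr1, while Prlr differs mainly between libraries numbered 1 and 2.

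Per kilobase of exon, Ehf was the most abundant of the 10 genes in both lines and Esr1 the least abundant of the 7 tested. Ehf had 41.8 and 67.9 CPM per kb in Jagged1 cells and 41.2 and 46.0 CPM per kb in vector cells. Gata3 followed with 29.9 and 29.8 CPM per kb in Jagged1 cells and 21.9 and 22.9 CPM per kb in vector cells. Elf3 and Elf5 came next and could not be ordered, because their libraries overlapped in both lines: Elf3 averaged 17.2 ± 7.55 CPM per kb in Jagged1 cells and 12.2 ± 2.02 in vector cells, and Elf5 averaged 16.7 ± 1.64 in Jagged1 cells and 11.01 ± 2.46 in vector cells (SD, n = 2 each). Below them stood Stat5a, at 9.50 ± 2.08 CPM per kb in Jagged1 cells and 6.88 ± 1.18 in vector cells. Prlr was at 3.87 ± 1.94 and Esr1 at 1.23 ± 0.0947 CPM per kb in Jagged1 cells, against 3.001 ± 1.47 and 1.35 ± 0.0170 in vector cells. Apart from Elf3 and Elf5, no neighbours among these 7 overlapped within a line. The exon lengths are unions over all GENCODE isoforms, which understates genes with long alternative exons such as Prlr (15339 bases) and Esr1 (13661 bases).

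Epithelial marker genes were abundant in all libraries, while some luminal markers were at or near 0. Epcam, an epithelial adhesion molecule, was at 964 and 952 CPM in Jagged1 cells and at 920 and 835 CPM in vector cells. The luminal keratin genes Krt8 (1189 and 765 CPM in Jagged1, 1161 and 929 CPM in vector) and Krt18 (990 and 816 CPM in Jagged1, 932 and 872 CPM in vector) were abundant, as were Krt7 and Cdh1. Krt19, another luminal keratin, had 0.0483 CPM in Jagged1 1 and was at 0 in the other 3 libraries, and the luminal mucin gene Muc1 did not exceed 0.813 CPM. Among basal markers Krt14 was at 740 and 356 CPM in Jagged1 cells and at 453 and 225 CPM in vector cells, whereas Krt5 did not exceed 0.0967 CPM. The log2 fold change of Krt14 was 0.69 ± 0.46, and that of Trp63, a transcription factor gene of basal cells, was 0.99 ± 0.51 (SE; adjusted p = 1 each, edgeR). Trp63 was at 7.20 and 19.7 CPM in Jagged1 cells and at 5.88 and 7.56 CPM in vector cells, and edgeR called it without Jagged1 1 (adjusted p = 0.0107). Both lines thus carried RNA of a basal keratin beside that of luminal keratins.

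RefSeq windows of 250 bases before to 50 after the start site were searched for 4 motifs on both strands, because Jagged1 acts through Notch and its DNA-binding partner RBPJ and because the genes encode ETS, GATA and STAT factors. Windows were found for 9 of the 10 genes, 15 windows in all. The RBPJ letters, TGGGAA, stood in 2 of the 15 windows, 1 of Prlr and 1 of Elf3, and in 25.6% of 32851 mouse windows of the same length. The ETS letters searched were AGGAAG, and 8 of the 15 windows held them, belonging to 5 genes, against 35.4% of all windows. For GATA factors the letters were AGATAA, found in 0 of the 15 windows and in 11.2% of all windows. The STAT letters, TTCNNNGAA, stood in 2 of the 15 windows, 1 of Esr1 and 1 of Prlr, and in 8.30% of all windows. The patterns do not contain one another, though neighbouring matches can share end letters. A match is a run of letters, and does not show binding.

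The windows below, from RefSeq on GRCm38.p6, are shown for the 3 tested genes with higher values in both Jagged1 libraries and for the 2 genes with RBPJ letters. They read 5′ to 3′ on the strand of the gene, at the most upstream start where there are several. Capitals mark motif letters or their reverse complement. The Gata3 window (chr2:9878551-9878850, minus strand) and the Elf5 window (chr2:103411848-103412147, plus strand) hold none of the 4. The Stat5a window (chr11:100859406-100859705, plus strand) holds 1 ETS match. The Prlr window (chr15:10176988-10177287, plus strand) holds 2 RBPJ matches and 1 ETS match, and the Elf3 window (chr1:135258423-135258722, minus strand) holds 1 RBPJ match.
Gata3: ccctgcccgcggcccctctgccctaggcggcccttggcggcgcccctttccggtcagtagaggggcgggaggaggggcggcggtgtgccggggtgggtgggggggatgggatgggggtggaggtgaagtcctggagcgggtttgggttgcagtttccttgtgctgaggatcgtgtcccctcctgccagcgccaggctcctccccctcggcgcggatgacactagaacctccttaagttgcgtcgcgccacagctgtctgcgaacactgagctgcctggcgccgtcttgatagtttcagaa
Elf5: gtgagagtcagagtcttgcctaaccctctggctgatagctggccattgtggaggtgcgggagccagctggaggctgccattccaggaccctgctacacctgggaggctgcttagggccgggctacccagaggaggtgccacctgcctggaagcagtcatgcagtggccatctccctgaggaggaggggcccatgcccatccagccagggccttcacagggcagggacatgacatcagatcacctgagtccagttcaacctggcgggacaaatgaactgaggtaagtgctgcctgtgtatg
Stat5a: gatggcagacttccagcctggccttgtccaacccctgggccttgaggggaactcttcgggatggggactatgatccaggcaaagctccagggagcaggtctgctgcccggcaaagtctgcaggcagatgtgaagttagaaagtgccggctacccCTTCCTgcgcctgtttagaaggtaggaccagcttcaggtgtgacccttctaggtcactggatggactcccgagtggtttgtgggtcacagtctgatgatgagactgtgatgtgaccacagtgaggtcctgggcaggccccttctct
Prlr: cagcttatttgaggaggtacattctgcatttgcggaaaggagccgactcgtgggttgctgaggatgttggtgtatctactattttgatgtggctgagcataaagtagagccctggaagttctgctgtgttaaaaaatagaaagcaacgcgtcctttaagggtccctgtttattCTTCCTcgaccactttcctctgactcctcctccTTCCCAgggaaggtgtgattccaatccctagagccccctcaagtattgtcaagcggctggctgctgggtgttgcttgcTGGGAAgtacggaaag
Elf3: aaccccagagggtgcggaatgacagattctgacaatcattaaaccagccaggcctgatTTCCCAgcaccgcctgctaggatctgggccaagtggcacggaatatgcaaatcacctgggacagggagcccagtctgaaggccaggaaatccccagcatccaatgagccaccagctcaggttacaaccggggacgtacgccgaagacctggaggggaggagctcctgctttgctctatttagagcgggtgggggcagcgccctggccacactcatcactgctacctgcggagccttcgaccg

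Gata3 (chromosome 2, 9857078 to 9890034, minus strand), which encodes the zinc finger factor required to form and keep luminal cells, had nearly the same level in both Jagged1 libraries. It was at 119.0 and 118 CPM in Jagged1 cells and at 87.1 and 91.1 CPM in vector cells. The lines did not overlap, and the libraries of a line lay within a few CPM of each other. The fitted log2 fold change was 0.41 ± 0.14 (SE; 95% interval 0.06 to 0.77; unadjusted p = 0.0289, edgeR), a 1.33-fold difference, and it did not pass over all genes (adjusted p = 1). Within library number 1 the difference was 0.45 and within number 2 it was 0.38 in log2 CPM. Of its exon bases 5.83% overlap the transcripts 9230102O04Rik and Gm13256, of which Gm13256 lies on the opposite strand.

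Foxa1 (chromosome 12, 57540628 to 57546916, minus strand), the pioneer factor that works with the oestrogen receptor, was read 2 and 4 times in Jagged1 cells and 0 and 3 times in vector cells. These counts lie at or near the floor of 3 counts, which corresponds to 0.145 and 0.216 CPM in Jagged1 1 and 2 and to 0.198 and 0.244 CPM in vector 1 and 2. The ratio of the summed counts to depth was 1.61 (exact conditional 95% interval 0.345 to 9.97, counting error only), so no difference was detectable at this depth. The partner genes Foxa2 and Foxa3 did not exceed 0.216 CPM in any library.

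Esr1 (chromosome 10, 4611593 to 5005614, plus strand), the oestrogen receptor alpha gene, was read 329 and 246 times in Jagged1 cells and 282 and 225 times in vector cells. In CPM this was 15.9 and 17.7 in Jagged1 cells and 18.6 and 18.3 in vector cells. The Jagged1 libraries were the lower ones, without overlap, by little. The log2 fold change was -0.14 ± 0.18 (SE; 95% interval -0.595 to 0.325; adjusted p = 1, edgeR). Pgr (chromosome 9, 8899833 to 8968611, plus strand), the progesterone receptor and a classical oestrogen target, had 0 counts in all 4 libraries, which allows at most the floor of 3 counts in each.

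Prlr (chromosome 15, 10177238 to 10349180, plus strand), the receptor for the milk hormone prolactin, was at 38.4 and 80.4 CPM in Jagged1 cells and at 30.0 and 62.0 CPM in vector cells. The high libraries were the pair numbered 2, and the lines overlapped. Library 2 exceeded library 1 by 2.09-fold in Jagged1 cells and by 2.06-fold in vector cells, while Jagged1 exceeded vector by 1.28-fold within number 1 and by 1.30-fold within number 2. Over all libraries the log2 fold change was 0.37 ± 0.47 (SE; 95% interval -0.82 to 1.55; adjusted p = 1, edgeR). It was -0.257 without Jagged1 2 and -0.0463 without vector 1.

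Stat5a (chromosome 11, 100859351 to 100885169, plus strand), the transcription factor that prolactin activates, was at 57.3 and 78.3 CPM in Jagged1 cells and at 43.1 and 55.0 CPM in vector cells. Both Jagged1 libraries were above both vector libraries, Jagged1 1 by a narrow margin over vector 2. The log2 fold change was 0.47 ± 0.23 (SE; 95% interval -0.10 to 1.03; unadjusted p = 0.0897 and adjusted p = 1, edgeR), with 0.41 within number 1 and 0.51 within number 2. Its copy Stat5b, the gene for the related factor STAT5B, lies 8626 bases away on the opposite strand and stood at 0.25 ± 0.21, with overlapping lines. Of the 50-base windows of the longest Stat5a transcript, 15.8% occur unchanged in Stat5b, so reads that lie wholly within shared stretches cannot be told apart by sequence. The share of reads affected was not measured.

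Elf5 (chromosome 2, 103411688 to 103450989, plus strand), the factor of alveolar progenitors, had the largest fitted value of the 7 tested genes. It was at 91.2 and 104.8 CPM in Jagged1 cells and at 74.9 and 54.5 CPM in vector cells. The lines did not overlap, and the spread within vector was wider than within Jagged1. The log2 fold change was 0.60 ± 0.21 (SE; 95% interval 0.08 to 1.12; unadjusted p = 0.0313, edgeR), a 1.51-fold difference with an adjusted p of 1. The difference was 0.28 within number 1 and 0.94 within number 2.

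Ehf (chromosome 2, 103263433 to 103303278, minus strand) encodes an ETS factor of the same epithelial subfamily and lies 108409 bases from Elf5. It was at 233 and 379 CPM in Jagged1 cells and at 230.0 and 257 CPM in vector cells. Only Jagged1 2 stood out among these 4 libraries, and the lines overlapped. The log2 fold change was 0.33 ± 0.26 (SE; 95% interval -0.323 to 0.98; adjusted p = 1, edgeR), and without Jagged1 2 it was -0.0614. Within number 1 the lines were 0.018 apart and within number 2 they were 0.56 apart, in log2 CPM.

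Elf3 (chromosome 1, 135253575 to 135258568, minus strand), an ETS factor of differentiated and inflamed epithelium, was at 26.3 and 50.02 CPM in Jagged1 cells and at 30.3 and 24.0 CPM in vector cells. As with Ehf, Jagged1 2 was the high library, and the lines overlapped. The log2 fold change was 0.49 ± 0.34 (SE; 95% interval -0.36 to 1.33; adjusted p = 1, edgeR). The direction differed between the numbers, at -0.20 within number 1 and 1.06 within number 2, and without Jagged1 2 the fitted value was -0.0437. The exons of Elf3 overlap the opposite-strand gene Gm26642 over 7.31% of their length.

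Kit (chromosome 5, 75574916 to 75656722, plus strand), the stem cell factor receptor of luminal progenitors, was read 7 and 4 times in Jagged1 cells and 1 and 2 times in vector cells. Both lines sat near the floor of 3 counts per library. The ratio of summed counts to depth was 2.96 (exact conditional 95% interval 0.782 to 16.5, counting error only), an interval that includes equality. The gene of its ligand, Kitl, was well expressed, at 63.7 and 64.4 CPM in Jagged1 cells and at 27.1 and 59.7 CPM in vector cells (log2 fold change 0.56 ± 0.37, adjusted p = 1, edgeR). Markers of mast cells and melanocytes, other cell types that carry KIT, were low: of the mast cell markers 4 were analysed and summed to at most 0.163 CPM, and the melanocyte enzyme genes Tyr and Dct were at 0 in every library. The 5 melanocyte-list genes summed to 3.48 and 8.0 CPM in Jagged1 cells and to 5.22 and 7.24 CPM in vector cells, most of it Mitf, a transcription factor gene, at 2.27 and 6.56 CPM in Jagged1 cells and at 4.36 and 5.53 CPM in vector cells.

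**Figure D2:**
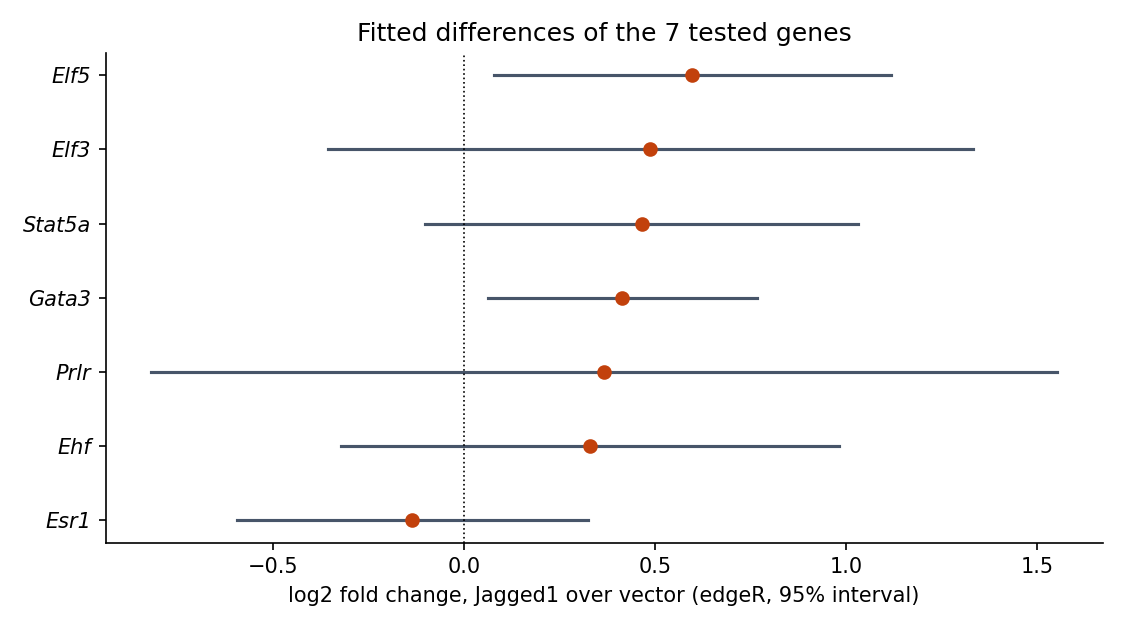
Log2 fold change of Jagged1 over vector from edgeR for the 7 tested genes (points) with 95% intervals (lines); the dotted line marks no difference. The intervals of Elf5 and Gata3 lie above 0 and those of the other 5 genes include it; none passed adjustment over all tested genes.

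**Figure D3:**
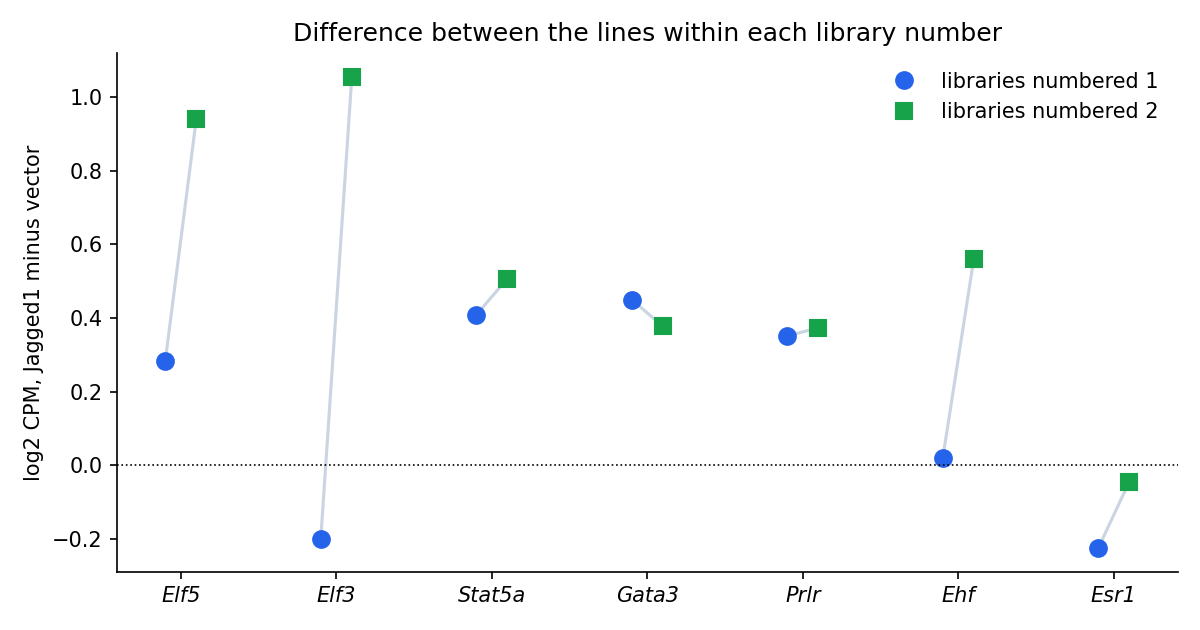
Log2 CPM of Jagged1 minus vector for each of the 7 tested genes, within the libraries numbered 1 (circles) and 2 (squares). Gata3, Stat5a and Prlr have nearly the same difference within both numbers, while Elf3 runs from -0.20 within number 1 to 1.06 within number 2.

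Patterns over the 4 libraries were compared among the 7 tested genes as the root mean square difference of centred log2 CPM, where a small value means a like pattern. Of 21 pairs the closest was Stat5a with Ehf (0.14), followed by Gata3 with Stat5a (0.19) and Ehf with Elf3 (0.20). The neighbours Ehf and Elf5 were farther apart, at 0.32. The most distant pair was Prlr with Elf5 (0.63). With 4 libraries these values describe the libraries and carry no test.

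Jagged1 2 had the highest CPM of the 4 libraries in 6 of the 10 genes (Foxa1, Prlr, Elf5, Stat5a, Ehf and Elf3), of which Foxa1 lies near the floor. The share over all tested genes was not computed, so this count has no background to be read against. Jagged1 2 was also highest in 6 of 9 milk genes analysed and 8 of 14 luminal progenitor genes. It was highest in 5 of 11 prolactin and STAT5 genes and 9 of 21 ETS, GATA and FOXA family genes. The count was 4 of 13 for steroid receptor cofactors, 3 of 10 for basal markers, 2 of 15 for hormone-sensing partners and 1 of 10 for luminal structure genes. Some of these totals include genes with 0 counts in all libraries, such as Pgr among the 10 genes. Summed over its 6 genes the fibroblast marker list was at 10.5 and 48.9 CPM in Jagged1 cells and at 4.42 and 6.91 CPM in vector cells, and 4 of the 6 were highest in Jagged1 2. Pdgfra was highest in Jagged1 1, with 166 counts there and 93 in Jagged1 2, against 51 and 61 in vector cells. Col1a1, a fibrillar collagen gene, was at 1.74 and 27.1 CPM in Jagged1 cells and at 1.06 and 1.95 CPM in vector cells, while the fibroblast gene Lum was at 0 throughout. Its log2 fold change in edgeR was 4.19 without Jagged1 1 and 0.22 without Jagged1 2. With all libraries but no low-count filter, edgeR called the fibroblast genes Dcn (log2 fold change 6.87, adjusted p = 0.00318) and Pdgfrb (8.88, adjusted p = 6.07e-05). Without Jagged1 1 the edgeR value was 7.52 for Dcn, 9.68 for Pdgfrb and 9.37 for the collagen gene Col3a1. Leukocyte markers summed to 0.242 and 9.44 CPM in Jagged1 cells and to 1.06 and 9.19 CPM in vector cells, higher in both libraries numbered 2. The part of these cells in the values of Ehf, Elf3 and Prlr was not tested.

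Several hormone-sensing partners of the receptors were unread or low. Of 15 genes, 5 had 0 counts in every library, among them the oestrogen receptor beta gene Esr2, the oestrogen cofactor gene Cited1 and Tnfsf11, which encodes the progesterone effector RANKL. Of 8 tested, 5 had positive and 3 negative values with a median log2 fold change of 0.30, and 0 passed over all genes in edgeR or limma-voom, with 2 at an unadjusted p under 0.05. Areg, an EGF receptor ligand that oestrogen induces in the gland, was at 50.8 and 33.9 CPM in Jagged1 cells and at 88.9 and 88.3 CPM in vector cells. Both Jagged1 libraries were the lower ones, at a log2 fold change of -1.06 ± 0.23 (SE; unadjusted p = 0.00454 and adjusted p = 0.914, edgeR), where 2.15% of all tested genes had an unadjusted p under 0.05 in that direction. Areg passed in DESeq2 (adjusted p = 0.0298), where it was the 1 called gene of this list, in edgeR without Jagged1 1 (adjusted p = 0.00186) and in edgeR without the low-count filter (adjusted p = 0.000389). That last setting also called Greb1 and Prom1, a luminal surface marker gene at 33.7 and 40.0 CPM in Jagged1 cells and at 12.9 and 27.1 CPM in vector cells (adjusted p = 0.0264). Wnt4, a progesterone effector, did not exceed 1.71 CPM. Greb1, an oestrogen target named here after its values were seen, was at 6.77 CPM in Jagged1 1 and at 0.721 CPM in Jagged1 2, against 0.726 and 0.650 CPM in vector cells; edgeR called it without Jagged1 2.

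Genes of prolactin and STAT5 signalling gave no call with all libraries and the low-count filter. Of 11 tested genes, 7 had positive and 4 negative values with a median of 0.17, 0 passed over all genes in edgeR, DESeq2 or limma-voom, and 0 had an unadjusted p under 0.05 in edgeR. Without Jagged1 2 (adjusted p = 0.0471), and with all libraries but no low-count filter (adjusted p = 0.0107), edgeR called Id2, an inhibitor of helix-loop-helix factors, which was at 36.5 and 13.8 CPM in Jagged1 cells and at 9.57 and 14.3 CPM in vector cells. Jak2, the kinase bound to the prolactin receptor, was at 49.3 and 52.5 CPM in Jagged1 cells and at 45.0 and 45.3 CPM in vector cells. The STAT5 feedback gene Cish was at 8.46 and 15.2 CPM in Jagged1 cells and at 4.69 and 13.4 CPM in vector cells, high in the libraries numbered 2 as Prlr was. Socs2, another feedback inhibitor, stood at a log2 fold change of -0.10 ± 0.29 and Socs1 at -0.30 ± 0.34 (SE). The casein genes and Wap were unread or low in most libraries: Csn2 had a count in Jagged1 2 alone, Wap had 0 in all libraries, and Csn1s1, the alpha casein gene, was at 0.338 and 19.5 CPM in Jagged1 cells and at 0.132 and 0.732 CPM in vector cells. Btn1a1, which encodes a milk fat globule protein, was at 21.3 and 51.8 CPM in Jagged1 cells and at 22.4 and 26.3 CPM in vector cells. Xdh, another gene of milk fat secretion, was at 83.4 and 349 CPM in Jagged1 cells and at 204 and 192 CPM in vector cells. Of 4 tested milk genes all had positive values, 0 passed in edgeR, DESeq2 or limma-voom and 0 had an unadjusted p under 0.05; without Jagged1 1 edgeR called Csn1s1 and Btn1a1, both higher in Jagged1, and without Jagged1 2 it called Xdh in the other direction, lower in Jagged1 (log2 fold change -1.25, adjusted p = 0.0498).

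Related regulators of the ETS, GATA, FOXA and other luminal families were measured beside the members. Of 15 tested genes, 9 had positive and 6 negative values, the median was 0.12, and 0 passed over all genes in edgeR, DESeq2 or limma-voom. At an unadjusted p under 0.05 stood 2, Trps1 and Etv6, and Trps1, an atypical GATA factor of luminal breast cells, had the larger value. It was at 335 and 402 CPM in Jagged1 cells and at 164 and 238 CPM in vector cells, without overlap (log2 fold change 0.87 ± 0.23, SE; unadjusted p = 0.0112 and adjusted p = 0.976, edgeR). Trps1 passed in edgeR without Jagged1 1 (adjusted p = 0.0452) and, with all libraries, without the low-count filter (adjusted p = 0.0184). The ETS repressor gene Etv6 was at 102 and 133 CPM in Jagged1 cells and at 83.2 and 82.6 CPM in vector cells (0.50 ± 0.18, unadjusted p = 0.0348 and adjusted p = 1, edgeR). The ETS genes Ets1, Ets2, Elf1, Elf2, Elf4 and Etv4 lay between -0.18 and 0.12.

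Luminal progenitor genes, steroid receptor cofactors and luminal structure genes also gave 0 calls over all genes in edgeR, DESeq2 and limma-voom; Lif was the 1 gene of these lists at an unadjusted p under 0.05. Without Jagged1 1 edgeR called the milk protein gene Ltf, at 243 and 2380 CPM in Jagged1 cells and at 553 and 928 CPM in vector cells. Of 12 tested progenitor genes 8 were positive and 4 negative (median 0.29), with Sox9, a progenitor transcription factor, at 0.25 ± 0.17 and Lif, a cytokine gene, at -0.56 ± 0.15 (SE; unadjusted p = 0.00979, adjusted p = 0.976, edgeR). The 13 cofactor genes stayed between -0.12 and 0.16, a narrow range that included the coactivators Ncoa1, Ncoa2 and Ncoa3 and the corepressor Ncor1. Of 8 tested structure genes 3 were positive and 5 negative, with a median of -0.12.

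**Figure D4:**
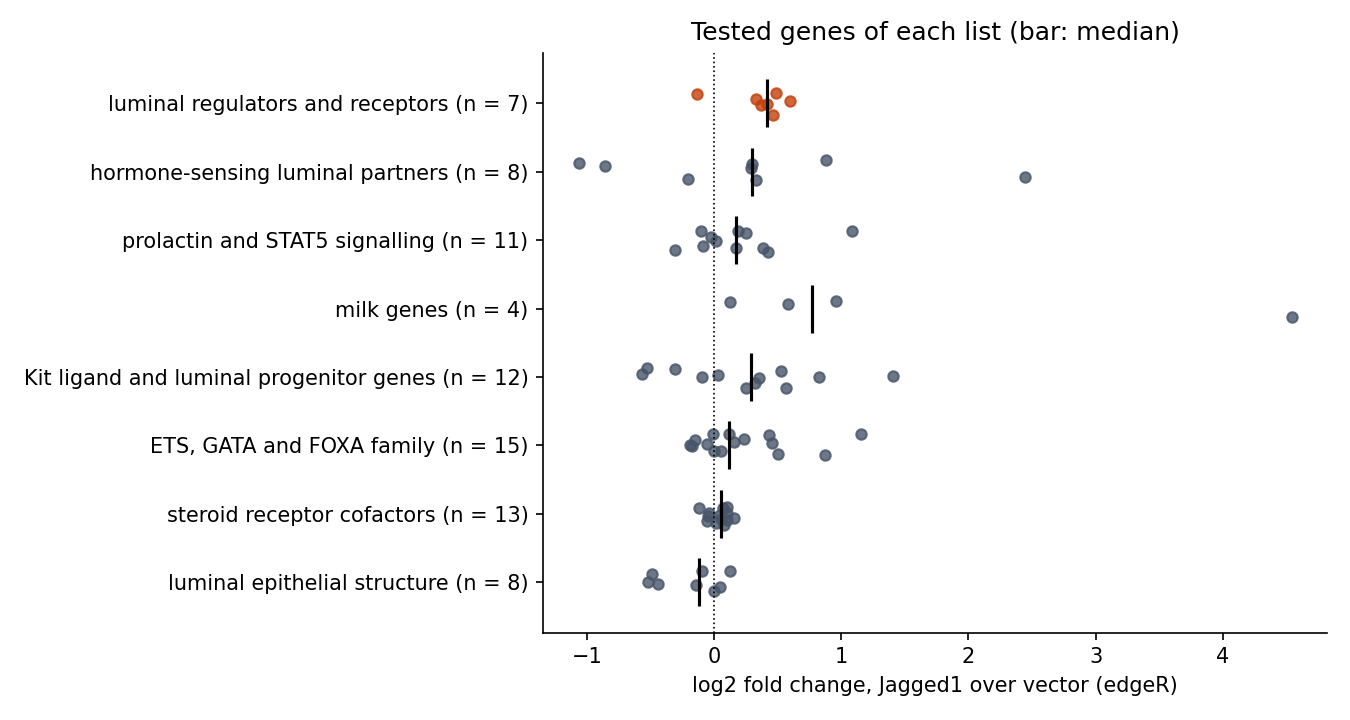
Log2 fold change of Jagged1 over vector (edgeR) for the tested genes of each list, 1 point per gene with a bar at the median; points are shifted vertically to separate them. The 7 luminal regulators and receptors have a median of 0.41, and the 13 steroid receptor cofactors lie closest around 0.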

How the data were processed

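Poly(A) RNA of 4 mouse cell line libraries was analysed, 2 Jagged1 and 2 vector. The authors deposited raw read counts per gene symbol; alignment software STAR 2.6.0c, featureCounts 1.6.2 and the genome mm10 (GRCm38) are listed per the submitters' processing notes. The annotation release and strand setting, not given in the sources used here, bear on genes that overlap. Samples were grouped by the virus named in the labels. Genes were filtered with filterByExpr (minimum count 10), scaled with TMM and tested with edgeR 4.0.16 (quasi-likelihood F test, Benjamini-Hochberg over 13299 genes, threshold 0.05) in R 4.3.3; DESeq2 1.42.0 and limma-voom (limma 3.58.1) were alternatives. On simulated counts of 13265 tested genes the edgeR fit recovered 92% of genes changed by 2 and 100% of those changed by 4 log2 units, with 25 false calls. Changes as small as those of the members were not simulated. The changed genes were drawn from well-counted genes only. Simulated libraries were drawn independently, so they lacked the pattern by replicate number seen in the data. SE is the absolute log2 fold change over the square root of F. Log2 CPM values used a prior count of 2. The exact conditional intervals and the floors (3 counts) cover counting error only; edgeR intervals include the spread between libraries. Replicates differed by more than sampling noise (chi-square per degree of freedom 50.6 and 32.3). With 2 libraries against 2 an exact permutation test cannot go below p = 0.333, so none was run. Positions and exon lengths come from GENCODE M21 (GRCm38); the counting annotation may differ. The members and gene lists were chosen with earlier results of these data known. Partner genes were named by a rule: the first 6 of a list, and any with an unadjusted p under 0.05; Foxa2, Foxa3, Muc1, Greb1, Prom1, Id2, Ltf, Btn1a1 and Xdh were named after their values were seen. Listed genes without a row in the table were not analysed here, and values of some listed genes are not reported here.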

Additional observations from a re-analysis of the deposited data

How the results depend on the processing

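The count of 0 members past the threshold held under every alternative run. Over all genes the count of 1 became 47 with DESeq2, 169 without the low-count filter, 17 with the replicate number as a block (replicate block) and between 0 and 193 with a library left out; it stayed at 1 with RLE size factors, limma-voom and a minimum mean of 5 CPM. Of 42 member values under settings with all libraries, 42 kept their direction. Of 28 with a library left out, 4 reversed: Prlr was at -0.257 without Jagged1 2 and at -0.0463 without vector 1, and without Jagged1 2 Ehf was at -0.0614 and Elf3 at -0.0437. The highest such values were 0.97 for Prlr, 0.64 for Ehf and 0.88 for Elf3. Gata3 lay between 0.40 and 0.44 with a library left out, Elf5 between 0.38 and 0.87 and Stat5a between 0.23 and 0.68. Adjusted p-values of members ranged from 0.081 (Elf3 without Jagged1 1) to 1. The labels do not say that equal numbers mark shared handling. Deviations of same-numbered libraries from their line's mean correlated across genes at 0.43. With that block Gata3 had an adjusted p of 0.336, Stat5a 0.294, Elf5 0.389 and Prlr 0.425, and 4 of 7 members had an unadjusted p under 0.05, as did 1234 of all 13299 genes. The cause of these shifts was not tested. Foxa1, Kit and Pgr lay at or near the floor, where only large differences could be seen.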
